A study of Sus scrofa with 28 samples.

Results

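Oxidative phosphorylation genes were followed in the lungs of swine that had inhaled sulfur mustard, an alkylating blister agent labelled HD. Members were the genes whose array annotation gave a single symbol beginning with NDUF, UQCR, ATP5 or COX followed by a digit, together with the SDH subunits and CYCS, and each gene was read from its brightest probe set. This gave 65 of the 6765 genes with a single symbol. Of these, 35 were counted with complex I, 4 with complex II, 2 with complex III, 9 with complex IV and 14 with complex V, and 1 was cytochrome c. Among them 60 encode structural subunits or cytochrome c, and 5 encode assembly factors or other proteins that share the name prefix. All 10 animals were female pigs that were premedicated, anesthetized, intubated and kept supine. The air group had 3 animals, the low group 3 animals exposed to 60 µg/kg of HD vapor and the medium group 4 animals exposed to 100 µg/kg, each exposure lasting 10 min. Pieces of the left apical, median and caudal lobes gave 28 Affymetrix porcine arrays, 9 from air, 9 from low and 10 from medium animals. The caudal lobe of medium animal 39 and the apical lobe of medium animal 41 had no array. The ages and strain of the animals are not given in the sources used here.

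The respiratory chain sits in the inner mitochondrial membrane. Complex I takes electrons from NADH and complex II takes them from succinate; both pass them to ubiquinone, complex III hands them to cytochrome c, and complex IV reduces oxygen. The proton gradient built on the way drives ATP synthesis by complex V. Most subunits are encoded in the nucleus and the remainder in mitochondrial DNA; outside the chain, cytochrome c released into the cytosol takes part in apoptosis. The mitochondrially encoded subunits and CYC1, COX4I1, COX4I2 and NDUFA4L2 were not analysed here.

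Values are deposited probe-set signals, a brightness with no fixed unit. Differences are log2 differences of log2(signal + 16) after quantile normalization, with the standard error (SE) from limma, and a gene was called where the p adjusted over 23999 probe sets was under 0.05. The lung label was matched by its markers: SFTPC, a surfactant gene of alveolar type 2 cells, had animal means of 2511 to 3359, and AGER of alveolar type 1 cells 301 to 861. In these bulk pieces, fewer cells of a type and less RNA per cell cannot be told apart. An index of RNA integrity, the mean log2 ratio of 3′ over 5′ control signal for actin and gapdh, was 2.17 in medium animal 39 and 0.616 to 1.35 in the other animals, a higher index meaning less intact RNA. Its group means were 1.12 in air, 0.765 in low and 1.24 in medium animals. The difference in the index was 0.115 for medium minus air (two-sided exact permutation p = 0.886, with 0.0286 the smallest possible). For medium minus low it was larger, at 0.474 (two-sided exact permutation p = 0.314, with 0.0286 the smallest possible). For low minus air it was -0.359 (two-sided exact permutation p = 0.3, with 0.1 the smallest possible). None of the genes in 11 marker lists of lung cell types was called in an exposure comparison; the values of some lists differed between groups without passing the test. All 5 ciliated cell markers had values above 0 in low minus air (median 0.33) and below 0 in medium minus air (median -0.34). Also in low minus air, 3 of 3 B and plasma cell markers were below 0 (median -0.38). There 7 of 8 smooth muscle markers (median 0.20) and 7 of 9 monocyte and macrophage markers (median 0.14) were above 0. The other lists had low minus air medians from -0.072 for neutrophils to 0.050 for alveolar type 2 cells. Medium minus air had 8 of 9 T and NK cell markers below 0 (median -0.41), as were 3 of 3 B and plasma cell markers (median -0.35) and 7 of 9 monocyte and macrophage markers (median -0.14), while 4 of 4 erythroid markers were above 0 (median 0.35). The medians of the remaining lists in medium minus air were -0.082 for alveolar type 2 cells, 0.061 for alveolar type 1 cells, 0.15 for smooth muscle, 0.014 for striated and heart muscle, -0.013 for endothelial cells and 0.069 for neutrophils. The part of such shifts in the values of the respiratory chain genes was not tested.

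The first question was whether inhaled HD changed the message of the respiratory chain 12 h later. No member was called in any of the 3 exposure comparisons. In low minus air, where 0% of all probe sets were called, the 65 differences ran from -0.26 for COX7A1 to 0.30 for NDUFV3, with a median of 0.036 and 49 above 0. In medium minus air, where 0.129% of all probe sets were called, they ran from -0.88 for ATP5I to 0.36 for ATP5J, with a median of -0.046 and 45 below 0. In medium minus low, where 0.00417% of probe sets were called, the median was -0.093 and 49 members were below 0. The medians over all 23999 probe sets in the same comparisons were -0.0050, -0.00044 and 0.0030. At an unadjusted p under 0.05, 2 members, or 3.08%, passed in low minus air against 7.41% of all probe sets, 1 in each direction. In medium minus air 11 passed, which is 16.9% of the members against 16.6% of all probe sets; 3 of them were higher, against 8.2% of all probe sets, and 8 lower, against 8.37%. For medium minus low 13 passed, which is 20% of the members against 18.2% of all probe sets; 2 were higher, against 9.76%, and 11, or 16.9%, were lower, against 8.46%. In the medium comparisons the shares over both directions are near the background, and fewer members were higher and more lower than among all probe sets.

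The precision bounds what could have been missed. In medium minus air the 95% interval of the difference lay within 0.5 of 0 for 59 of 65 members, against 70.3% of all probe sets, and within 0.25 of 0 for 21. In low minus air it lay within 0.5 of 0 for 61 members. The members varied little from animal to animal: their median SD within groups was 0.11, compared with 0.15 over all probe sets.

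**Figure D1:**
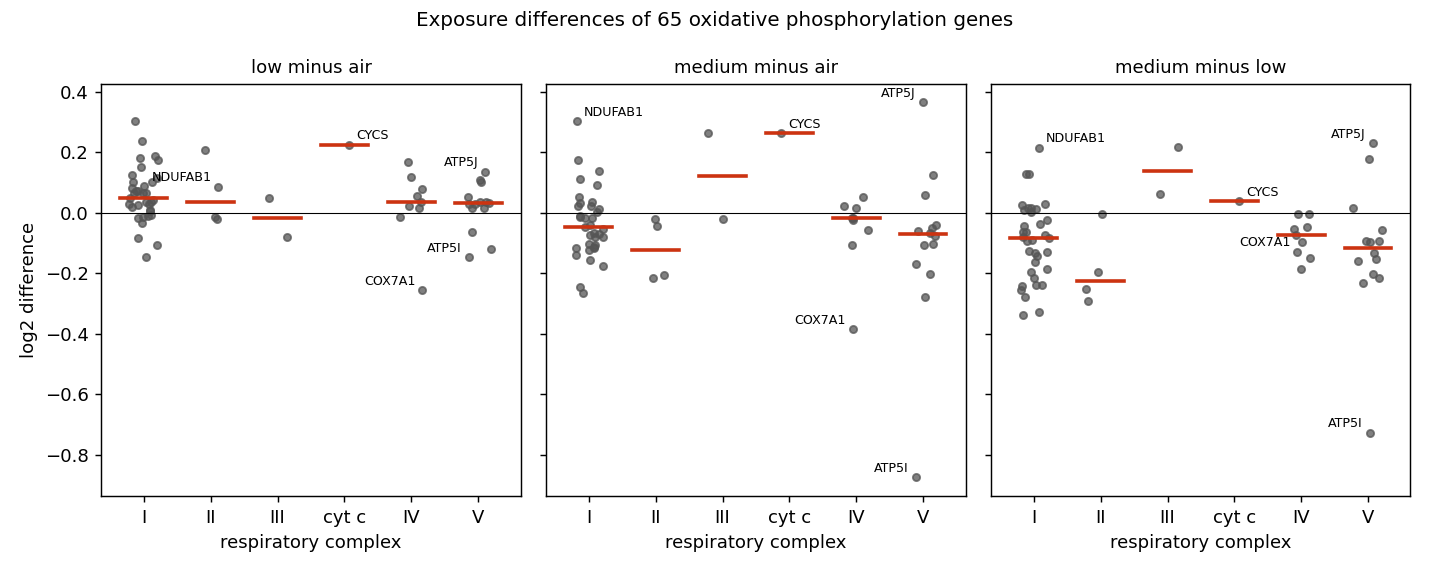
Each point is 1 of the 65 genes, placed by respiratory complex on the horizontal axis and by its log2 difference on the vertical axis, for the 3 exposure comparisons, 1 panel each. Red bars are medians of each complex; ATP5I lies apart at -0.88 in medium minus air and ATP5J is highest at 0.36.

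The shift in the medium group was uneven between animals. Taking each animal's median deviation of the 65 genes from the air mean, the air animals were at 0.027, 0.0098 and -0.039. The low animals were at 0.028, 0.021 and 0.059. The medium animals were at 0.056 for animal 34, 0.0070 for 39, -0.17 for 41 and -0.11 for 42. Animals 41 and 42 were thus below every air and low animal, animals 34 and 39 were not, and the groups overlapped. The SD of this median between animals within groups was 0.075, larger than the shift of -0.046.

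The complexes had medium minus air medians of -0.046 for complex I (23 of 35 below 0), -0.12 for complex II (4 of 4 below 0), 0.12 for complex III (1 of 2 below 0), -0.018 for complex IV (6 of 9 below 0) and -0.071 for complex V (11 of 14 below 0). For complex II, which joins the citric acid cycle to the chain, the animal medians were -0.023, 0.0093 and 0.019 in air and 0.12, 0.015 and 0.0062 in low animals. In the medium animals they were 0.048 in 34, -0.20 in 39, -0.26 in 41 and -0.15 in 42, so 3 of 4 medium animals were below all others. In medium minus low, 9 of 9 complex IV genes and 4 of 4 complex II genes were below 0, with medians of -0.074 and -0.22. The 9 include COX10, an assembly enzyme, and the dim COX8H. At an unadjusted p under 0.05, 0 of the complex IV genes and 2 of the complex II genes passed.

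**Figure D2:**
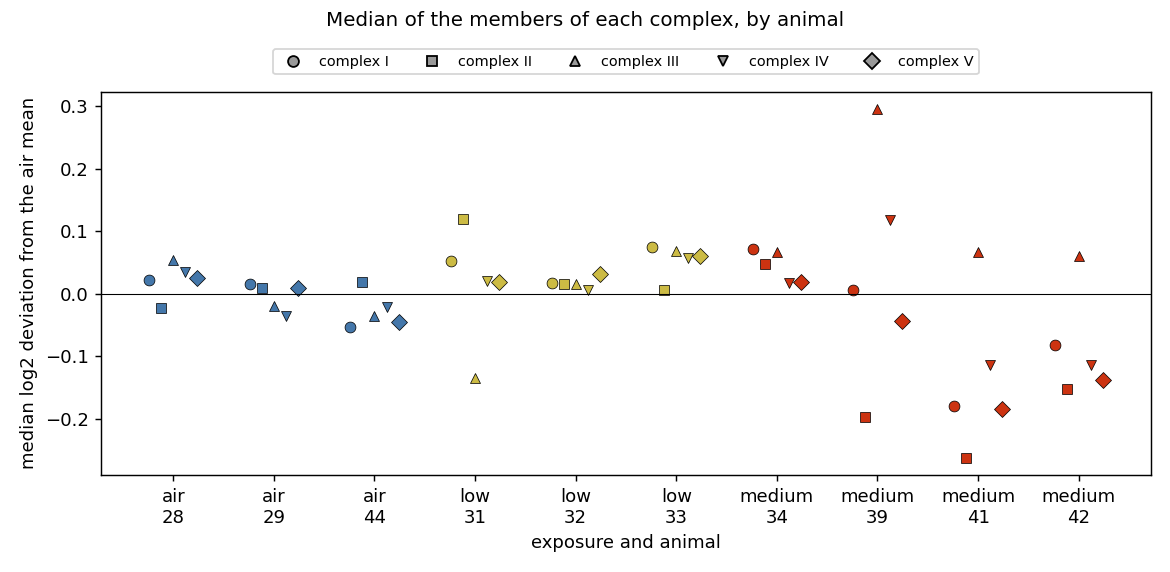
Each marker is the median log2 deviation from the air mean over the members of 1 complex in 1 animal, with animals in exposure groups along the horizontal axis. Air and low animals lie between -0.13 and 0.12, while medium animals 41 and 42 lie below 0 in complexes I, II, IV and V and medium animal 34 does not.

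Members were also counted where the animals of 2 groups did not overlap at all in the normalized values adjusted for lobe. In low minus air, 10 members were higher in every low animal than in every air animal (15.4% of the members against 9.23% of all probe sets), namely ATP5G3, ATP5J, CYCS, NDUFA13, NDUFA8, NDUFB5, NDUFS6, NDUFS7, NDUFV3 and SDHB. In the other direction 1 member, COX7A1, was lower against 9.41%. Between medium and air 2 members were higher, ATP5J and NDUFAB1, against 6.88%, and 5 were lower, ATP5D, ATP5G2, COX7A1, NDUFA12 and SDHD, against 6.6%. In medium minus low the same 2 members were higher against 7.26%, and 9 (13.8%) were lower against 6.6%, namely ATP5D, ATP5G2, ATP5O, COX6A1, NDUFA12, NDUFAF2, NDUFB9, NDUFS6 and NDUFV2. ATP5J was the 1 member whose groups were fully ordered from air through low to medium, an order held by 0.275% of all probe sets. The comparisons share animals, and some of the genes named here are described below by their values. In deposited signal averaged over lobes, NDUFS7 overlapped between low and air, and ATP5D and ATP5G2 between medium and air. Between medium and low, ATP5D, ATP5O, COX6A1 and NDUFS6 overlapped in deposited signal.

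Complex I is the largest complex, built of core subunits that carry the redox centres or pump protons and a shell of accessory subunits. Among its 5 measured core genes (NDUFS1, NDUFS3, NDUFS7, NDUFV1 and NDUFV2) 5 of 5 were above 0 in low minus air (median 0.081) and 5 of 5 below 0 in medium minus low (median -0.16), with none called. Both counts use the same low animals. In medium minus air 4 of 5 were below 0 (median -0.11). A dimmer NDUFV2 probe set (mean signal 62.2) gave -0.059 in low minus air and 0.12 in medium minus low. Another (mean signal 35.4) gave 0.28 and -0.16, and the further NDUFS3 probe sets kept both directions. The 27 accessory genes had a median of -0.046 in medium minus air. NDUFAB1, the mitochondrial acyl carrier protein that also serves fatty acid and lipoic acid synthesis, had the largest positive difference of the complex in medium minus air. Its signal averaged over lobes was 877, 897 and 781 in air animals, 956, 809 and 963 in low animals and 1019, 1103, 1014 and 1101 in medium animals. All medium animals were above all air and low animals. The difference from air was 0.30 (SE 0.088, adjusted p = 0.146), and the group means were 852 ± 61.7 in air and 1059 ± 49.3 in medium animals (SD). NDUFB10, an accessory subunit of the membrane arm, had the most negative value. Its signal was 899, 911 and 862 in air, 995, 952 and 873 in low and 953, 711, 603 and 749 in medium animals. Medium animals 39, 41 and 42 were below every other animal, and animal 34 was within the range of the others; the difference from air was -0.27 (SE 0.12, adjusted p = 0.317). NDUFA12, an accessory subunit, was at 678 to 735 in air, 694 to 789 in low and 561 to 667 in medium animals, a difference from air of -0.18 (adjusted p = 0.268). The assembly factors NDUFAF1, NDUFAF2 and NDUFAF3, which help to build the complex and are not part of it, gave 0.11, -0.25 and 0.013.

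Complex II is the succinate dehydrogenase of the citric acid cycle. SDHA, its flavoprotein, differed little: animal signals were 598, 604 and 622 in air, 607, 620 and 578 in low and 615, 644, 557 and 583 in medium animals. The groups overlapped, and the difference of medium from air was -0.020 with a 95% interval from -0.16 to 0.12 (adjusted p = 0.912). SDHB, the iron-sulfur subunit, was at 813, 816 and 823 in air animals and higher in every low animal, at 948, 881 and 1010. The medium animals spread from 675 to 998 around the air values. A second SDHB probe set with a mean signal of 337 gave -0.0049 in low minus air (SE 0.11), against 0.21 for the main one. SDHD, a membrane anchor, had the most negative difference of the complex in medium minus air, where no member of complex II had a positive one. Its signal was 1182, 1247 and 1197 in air, 1283, 1156 and 1140 in low and 1179, 1025, 929 and 1023 in medium animals. Every medium animal was below every air animal, but animal 34 by a narrow margin and within the low range. The difference from air was -0.22 (SE 0.077, adjusted p = 0.208).

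In complex III both measured genes encode small subunits. UQCR10 was at 730, 632 and 630 in air, 664, 680 and 718 in low and 783, 968, 742 and 723 in medium animals. Medium animal 39, which had the highest RNA index, was the highest of all, and animal 42 lay below air animal 28. The difference of medium from air was 0.26 (SE 0.11, adjusted p = 0.276). UQCRB was at 949, 1008 and 952 in air, 808, 959 and 956 in low and 915, 966, 960 and 973 in medium animals, a difference of -0.020 with a 95% interval from -0.19 to 0.15 (adjusted p = 0.932). For cytochrome c, the carrier between complexes III and IV, the signal of CYCS was 415, 376 and 343 in air, 450, 423 and 455 in low and 605, 372, 415 and 502 in medium animals. Low animals were all above air animals, and the medium animals spanned both groups. The differences from air were 0.22 for low (adjusted p = 0.732) and 0.26 for medium (95% interval -0.070 to 0.59, adjusted p = 0.406).

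Complex IV has tissue forms of some small subunits. COX7A1, the heart and skeletal muscle form of subunit VIIa, was at 170, 131 and 138 in air, 111, 122 and 127 in low and 102, 123, 97.8 and 103 in medium animals. All exposed animals were below all air animals, with low and medium overlapping. The difference was -0.26 for low minus air (SE 0.096, adjusted p = 0.661) and -0.39 for medium minus air (SE 0.089, adjusted p = 0.101). Summed signal of 16 markers of striated and heart muscle was 370 to 468 in air, 401 to 505 in low and 364 to 431 in medium animals. These sums are low for 16 probe sets, and 16 was added to each signal before taking logs, so the list says little about muscle content. In medium minus air 9 of the 16 were above 0 and 7 below, with a median of 0.014. The smallest p among them there was that of ACTC1, cardiac actin, at -0.40 (adjusted p = 0.159). Its signals were 23.6 to 41.5 in air and 13.8 to 28.1 in medium animals. Whether muscle content bears on COX7A1 was not tested. COX7A2, the ubiquitous form, was at 923 to 1027 in air, 922 to 1021 in low and 910 to 1050 in medium animals, a medium minus air difference of -0.018 (95% interval -0.20 to 0.16). The difference between both forms was not tested. COX10, an assembly enzyme that makes heme A precursors, had the largest positive value of the group in medium minus air. It was at 106, 102 and 100.1 in air, 116, 112 and 96.3 in low and 109, 117, 121 and 82.8 in medium animals, so the groups overlapped, and the difference was 0.051 (SE 0.11, adjusted p = 0.868). NDUFA4, a complex IV subunit despite its name, was at 1131, 1058 and 1016 in air, 1184, 1082 and 1203 in low and 1163, 1122, 1020 and 1020 in medium animals, a medium minus air difference of 0.021 with a 95% interval from -0.16 to 0.21 (adjusted p = 0.929). COX8H, a heart form, had a mean signal of 7.79, below the 16 added before taking logs, so its differences say little.

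Complex V, the ATP synthase, held both extremes of medium minus air. ATP5J, coupling factor F6 of the peripheral stalk (now named ATP5PF), was at 348, 359 and 350 in air animals. Low animals were at 394, 384 and 377, and medium animals at 416, 439, 508 and 492. Every low animal lay above the air animals and every medium animal above the low animals. The differences from air were 0.14 for low (SE 0.081, adjusted p = 0.708) and 0.36 for medium (SE 0.076, 95% interval 0.19 to 0.54, adjusted p = 0.0846), so neither was called. A second probe set annotated to ATP5J had a mean signal of 3.56 and a medium minus air difference of -0.042. With a random animal effect in place of animal values the adjusted p of the brighter probe set was 0.0252, and without medium animal 34 it was 0.0437. In 18 of 20 alternative settings it was not called. Over all of them the adjusted p ran up to 0.303 and the difference from 0.16 to 0.41.

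ATP5I, subunit e of the membrane part, was at 489, 383 and 312 in air, 352, 336 and 351 in low and 354, 88.3, 219 and 275 in medium animals. Animal 34 was within the air range and the other medium animals were below every air and low animal. By array, animal 39 had 69.0 in the apical and 108 in the median lobe, and animal 41 had 316 in the median and 122 in the caudal lobe. The difference of medium from air was -0.88 (SE 0.36, 95% interval -1.67 to -0.080, adjusted p = 0.26). It was -0.52 without medium animal 39 and -0.30 in the 8 animals with all 3 lobes, which leave out animals 39 and 41. Animal 39 also had the highest RNA index; with the index as a covariate the difference was -0.77 (adjusted p = 0.0993).

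Among the F1 genes, ATP5D, the delta subunit of the central stalk, was at 966, 843 and 791 in air, 853, 839 and 798 in low and 768, 798, 623 and 690 in medium animals. The difference of medium from air was -0.28 (SE 0.096, adjusted p = 0.199), and the deposited signal of medium animal 39 was above that of air animal 44, although after normalization the groups did not overlap. ATP5A1 and ATP5B, the alpha and beta subunits that form the catalytic head, gave -0.11 and -0.076. The c-ring genes ATP5G1, ATP5G2 and ATP5G3, which encode the same mature protein, gave 0.12, -0.20 and -0.050. ATP5G2 was at 898 to 1034 in air, 983 to 999.5 in low and 767 to 902 in medium animals, with an adjusted p of 0.216 against air; medium animal 39 and air animal 44 overlapped in deposited signal but not after normalization. ATP5O, the stalk protein that confers oligomycin sensitivity, gave -0.17 (adjusted p = 0.267).

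**Figure D3:**
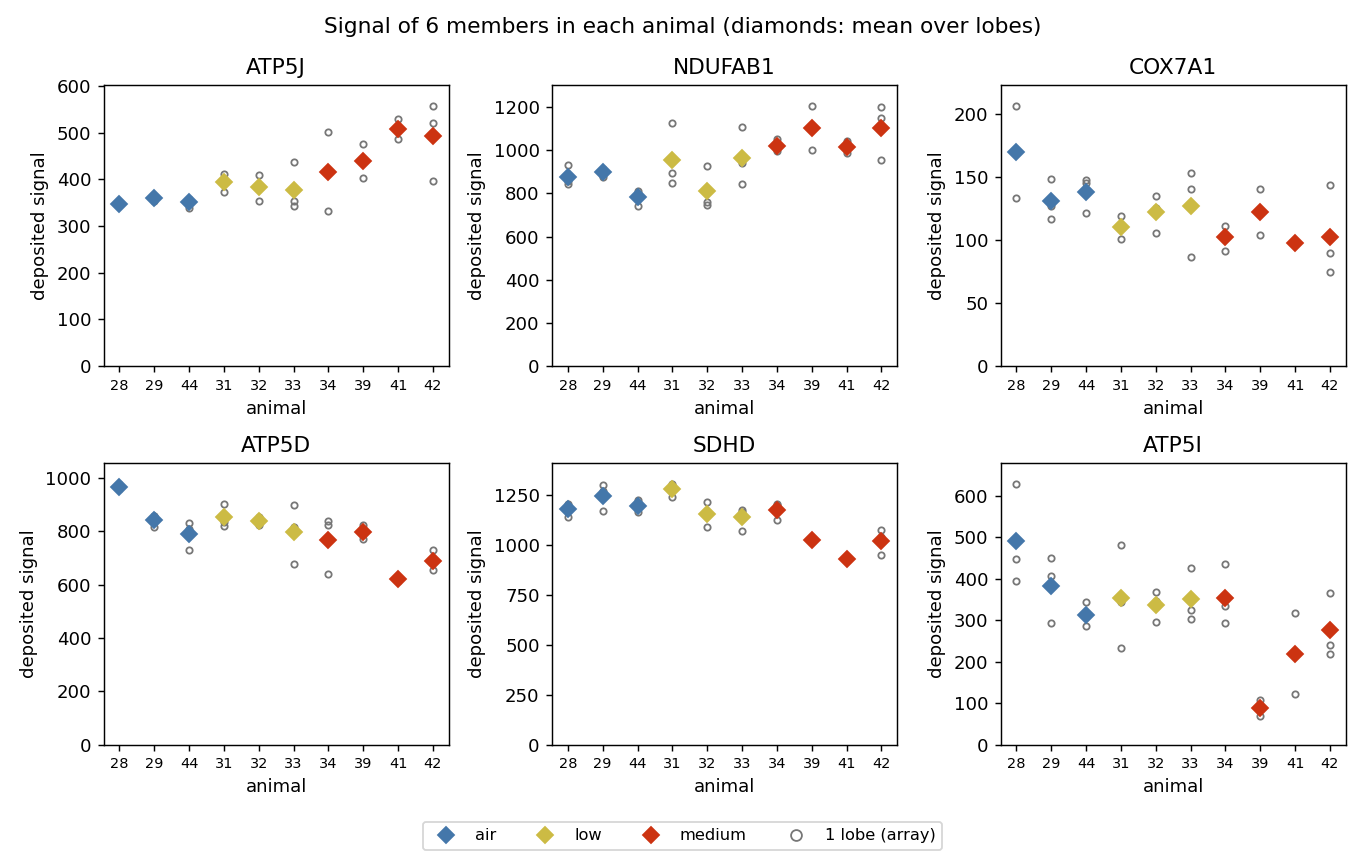
Deposited signal of ATP5J, NDUFAB1, COX7A1, ATP5D, SDHD and ATP5I on linear axes starting at 0, with 1 diamond per animal for the mean over its lobes and open circles for single arrays. ATP5J is at 348 to 359 in air, 377 to 394 in low and 416 to 508 in medium animals, while ATP5I is at 88.3 in medium animal 39.

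No member was called in any of the 9 comparisons of exposure within a lobe. The shares of all probe sets called in the apical lobe were 0% for low minus air, 0% for medium minus air and 0% for medium minus low. In the median lobe they were 0%, 0.404% and 0.0208%, and in the caudal lobe 0%, 0.00417% and 0%, in the same order. At an unadjusted p under 0.05, the members that passed in the apical lobe were 1 against 7.12% of all probe sets, 2 against 5.77% and 6 against 11.2%. In the median lobe they were 0 against 6.93%, 8 against 18.6% and 12 against 22.4%, and in the caudal lobe 3 against 6.09%, 9 against 15.5% and 7 against 9.96%. The median of the members in medium minus air was -0.046 in the apical, -0.032 in the median and -0.057 in the caudal lobe, with 42, 41 and 41 of 65 below 0; in the 8 animals with all 3 lobes the median-lobe value was 0.0087. In medium minus low it was -0.043, -0.13 and -0.089. ATP5J differed between medium and air by 0.18 in the apical, 0.38 in the median and 0.51 in the caudal lobe, with adjusted p of 0.86, 0.228 and 0.116. COX7A1 gave -0.32, -0.28 and -0.57 in the same order, and NDUFAB1 gave 0.27, 0.29 and 0.34. The test of whether exposure acted differently between lobes called no member, as it called 0% of all probe sets, and no member reached an unadjusted p under 0.05 in it against 7.39% of all probe sets. The smallest interaction p was 0.0558, for COX7A1, with an adjusted p of 0.68.

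The second question was whether the lobes differed, whatever the exposure. CYCS was the 1 member called, lower in the apical than in the median lobe, in a comparison that called 2.38% of all probe sets, 0.975% as lower. At an unadjusted p under 0.05, 17 members (26.2%) passed in apical minus median, against 16.6% of all probe sets. All 17 were lower in the apical lobe, a direction with 7.47% of all probe sets. Cell type markers differed between these lobes as well: 5 of 5 ciliated cell markers (median -0.17), 6 of 8 smooth muscle markers (median -0.11) and 4 of 4 erythroid markers (median -0.11) were below 0 in apical minus median. Above 0 were 8 of 9 monocyte and macrophage markers (median 0.084), 8 of 9 T and NK cell markers (median 0.056), 6 of 9 endothelial markers (median 0.094) and 3 of 3 B and plasma cell markers (median 0.27), of which CD79B and TNFRSF17 were called. The summed signal of the ciliated markers was 814 to 1300 in apical and 880 to 1493 in median lobes, and that of the smooth muscle markers 5596 to 9490 and 6937 to 10332. Of 16 striated and heart muscle markers, 9 were below 0 in apical minus median (median -0.0057) and 1 was called as lower. In apical minus caudal 10 of them were below 0 (median -0.074) and 1 was called as lower. The part of cell type markers in the members' lobe differences was not tested. In apical minus caudal 0 members were called against 0.167%, and 10 (15.4%) passed without adjustment, against 13.6%, all lower in the apical lobe, against 6.81% in that direction. In median minus caudal 0 were called against 0%, and 2 passed without adjustment against 11.6%. The median of the members was -0.054 in apical minus median, -0.046 in apical minus caudal and 0.010 in median minus caudal, and 50 of 65 were below 0 in each of the first pair. By complex, apical minus median gave -0.054 for complex I (29 of 35 below 0), 0.0082 for complex II (2 of 4), -0.078 for complex III (2 of 2), -0.053 for complex IV (5 of 9) and -0.062 for complex V (11 of 14). The highest member was COX7A1 at 0.18 (adjusted p = 0.389).

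**Figure D4:**
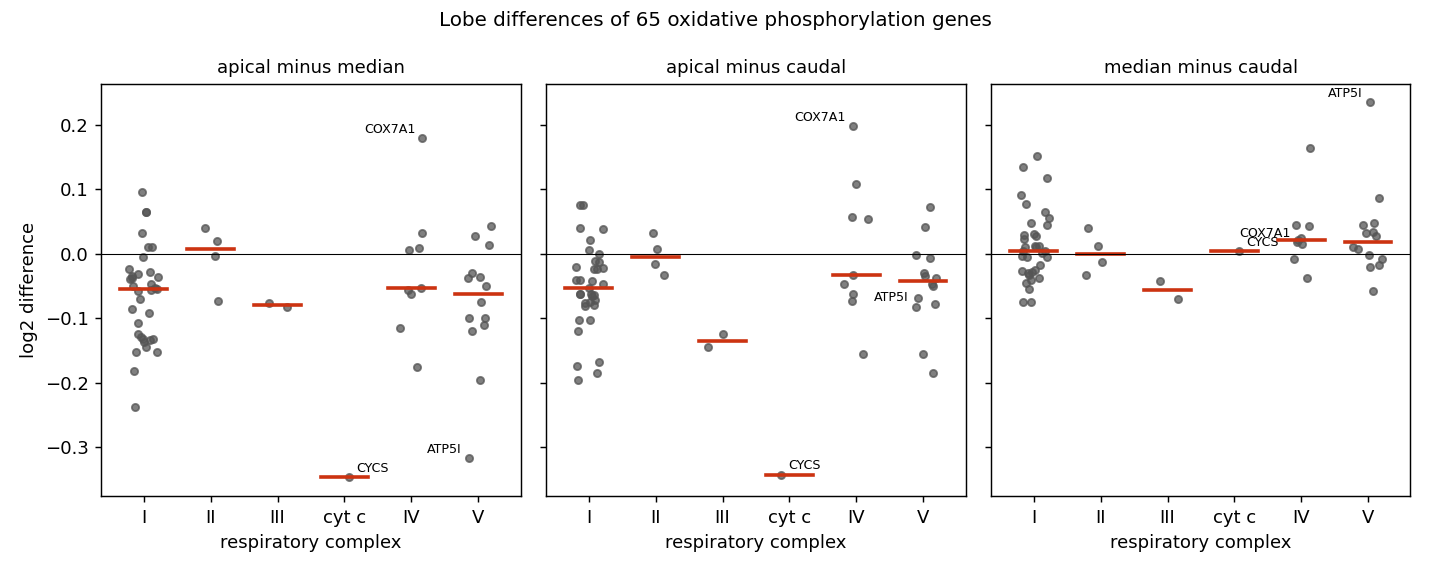
Each point is 1 of the 65 genes by respiratory complex, with its log2 difference between lobes on the vertical axis and red bars for the median of each complex. CYCS is lowest at -0.35 in apical minus median and -0.34 in apical minus caudal, and near 0 in median minus caudal.

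The CYCS signal in the apical, median and caudal lobe was 389, 460 and 395 in air animal 28, 344, 384 and 400 in animal 29 and 273, 355 and 401 in animal 44. In the low animals it was 451, 488 and 413 in animal 31, 341, 387 and 540 in animal 32 and 348, 448 and 569 in animal 33. Of the medium animals, 34 had 436, 658 and 722 and 42 had 392, 624 and 489; 39 had 340 in the apical and 405 in the median lobe, and 41 had 459 in the median and 371 in the caudal lobe. The apical lobe was below the median lobe in 9 of 9 animals, by 0.12 to 0.65 on the log2 scale after normalization. The mean difference was -0.35 (SE 0.082, adjusted p = 0.0343). Apical was below caudal in 7 of 8 animals, animal 31 being the exception, and the difference was -0.34 (SE 0.085, adjusted p = 0.0884). Median and caudal lobes differed by 0.0046, with 5 of 9 animals below 0. The apical minus median call of CYCS was lost in 9 of 19 alternative settings, whose adjusted p ran from 0.0162 to 0.225. These were median-centred arrays, an offset of 1, the 8 animals with all 3 lobes, no animal block, and leaving out 28, 34, 39, 42 or 44.

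**Figure D5:**
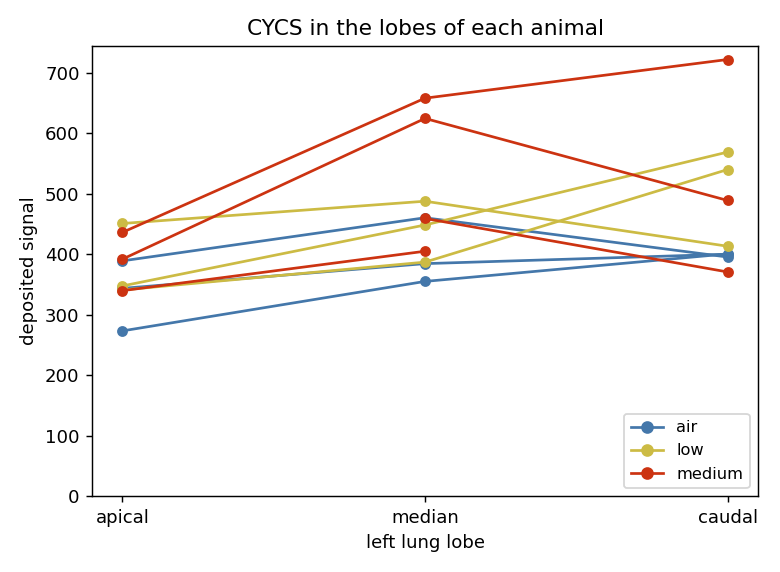
Deposited signal of CYCS in the left apical, median and caudal lobe, with 1 line per animal coloured by exposure and the vertical axis starting at 0. Every line with both lobes is higher at median than at apical, from 273 to 355 in air animal 44 for example, and the step from median to caudal has no common direction.

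Other mitochondrial genes were read from lists of related functions, and 0 genes of these lists were called in any exposure comparison. Of 33 further assembly factors of the complexes 13 were measured, with a median of -0.010 in medium minus air, and BCS1L, an assembly factor of complex III, had the smallest p there, with signals of 69.9 to 80.1 in air, 83.0 to 85.4 in low and 82.8 to 91.0 in medium animals (0.22, adjusted p = 0.152). Of 18 enzymes of the citric acid cycle 16 were measured, with a median of 0.020. MDH2, the mitochondrial malate dehydrogenase, was lower in the apical than in the median lobe (-0.32, SE 0.068, adjusted p = 0.0262); its animal means were 507 to 557 in air, 538 to 567 in low and 505 to 646 in medium animals. Of 12 nucleotide carriers, phosphate carriers and porins 11 were measured, with a median of -0.078, and VDAC1, the main outer membrane pore, was also lower in the apical lobe (-0.20, adjusted p = 0.0496), with animal means of 899 to 976 in air, 1047 to 1061 in low and 1019 to 1103 in medium animals. Of 78 mitochondrial ribosome genes 58 were measured, with a median of 0.070 in medium minus air and -0.067 in apical minus median, where 46 were below 0 and none was called. MRPS12 had their smallest p in medium minus air (0.29, adjusted p = 0.134), at 99.2 to 110 in air, 110 to 118 in low and 121 to 151 in medium animals.

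Of 15 regulators of mitochondrial biogenesis 6 were measured, with a median of 0.16 in medium minus air. Of these 4 were above 0 and 2 below, from -0.31 to 0.70. At an unadjusted p under 0.05, 2 were higher and 1 lower. PPRC1, a coactivator related to PGC-1, had signals of 70.3 to 106 in air, 86.8 to 114 in low and 144 to 175 in medium animals. The medium animals were above all others, the difference from air was 0.70 (SE 0.14, adjusted p = 0.0764), and PPRC1 was called as lower in the apical than in the median lobe (-0.60, adjusted p = 0.0153). TFAM, which packages and transcribes mitochondrial DNA, gave -0.0071 in medium minus air (adjusted p = 0.975). Summed signal of the 6 regulators was 1595 to 1753 in air, 1670 to 1747 in low and 1919 to 2096 in medium animals. Such a sum is weighted to the brighter genes and does not show a rise of each regulator.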

How the data were processed

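Signals of lung RNA on the Affymetrix porcine array were deposited as probe-set intensity on a linear scale; their mean trimmed by 2% at each end was near 150 on every array, and the summarization software is not given in the sources used here. Of 24123 probe sets, 124 controls were left out. Values were log2(signal + 16), quantile normalized. Exposure was tested with limma 3.58.1 (lmFit and eBayes, R 4.3.3) on 1 value per animal, its coefficient in a model of animal and lobe, with the 3 groups fitted together. Lobes and the interaction used all 28 arrays and a fixed block for the animal, since the lobes of 1 animal are paired by its number; within a lobe, 1 array per animal was used. Benjamini-Hochberg adjustment ran over 23999 probe sets.

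Values by animal are given for called members, for the largest positive and negative medium minus air difference of each complex, for SDHA, CYCS and NDUFA4, and, as ranges, for pathway list genes that were called, or otherwise had the smallest p of their list; SDHB, NDUFA12, COX7A2, COX8H, ATP5D, ATP5G2, ATP5A1, ATP5B, ATP5O, the other ATP5G genes, the assembly factors NDUFAF1 to NDUFAF3, TFAM and ACTC1 were named in addition, after their values were seen and in part by their differences alone. The members and lists were chosen with earlier results of these data known. All 65 symbols matched RefSeq's gene table. The number of arrays limits the precision. The script was tested on simulated data. Figures used Python and matplotlib.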

Additional observations from a re-analysis of the deposited data

Results flagged for a closer look

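In 17 groups of values tested for 1 that stands apart, 1 was found, COX7A1 in the medium animals. Most groups were the 4 medium animals, for a named gene or for the members' median. The others were the lobe differences of CYCS, in 9, 8 and 9 animals of all exposures. Chance alone flags about 1 in 20 such groups if they are not chosen by their values. Most of the genes were named for their medium minus air difference, so this rate does not strictly apply. The rule was also run on the members not named, whose flags were not kept. The normalized log2 value of COX7A1 in medium animal 39 was 7.07, against 6.88 to 6.90 in the other medium animals. Animal 39 also had the highest RNA index, and without it the medium minus air difference of COX7A1 was -0.43 (adjusted p = 0.0524).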

How the results depend on the processing

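The members' median kept its sign in medium minus air (-0.083 to -0.011), medium minus low, low minus air and both apical comparisons over the whole lung under all settings run; between median and caudal lobes it ran from -0.022 to 0.021. The count of members called in apical minus median was 0 with median-centred arrays, an offset of 1, the 8 animals with all 3 lobes and no replicate block; it was 2 with the brighter probe sets (COX10 and CYCS) and with trend and robust eBayes (ATP5B and CYCS), and 0 to 2 without single animals (2 without air animal 29). With no replicate block, CYCS gave -0.32 (adjusted p = 0.225). In apical minus caudal it was 1, CYCS, with the brighter probe sets. In medium minus air it was 2 with a random animal effect (ATP5J and NDUFAB1) and 0 to 1 without single animals, the 1 being ATP5J without medium animal 34. In medium minus low it was 4 with a random animal effect (ATP5G2, NDUFA12, NDUFAF2 and NDUFB9) and 0 to 3 without single animals (NDUFB10, SDHB and SDHC without medium animal 34). In medium minus air the small values of COX10, SDHA, UQCRB and NDUFA4 changed sign, COX10 to -0.088 in the 8 animals and SDHA to 0.0069 as the mean of its probe sets; without single animals they ran from -0.0030 to 0.15 for COX10, -0.048 to 0.0099 for SDHA, -0.034 to 0.0038 for UQCRB and -0.014 to 0.075 for NDUFA4. The cause of these changes was not tested. The alternatives of 8 animals within lobes were chosen after seeing the data; there the median-lobe value of medium minus air became 0.0087. Dim probe sets such as COX8H limit what can be read.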

Other observations

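Of the 65 genes, 15 had further probe sets, 18 in all. In medium minus air some differed in sign from the brightest. A second NDUFS6 probe set with a mean signal under 16 gave 0.22, where the main one gave -0.073. For NDUFV2, whose main probe set gave -0.12, others with mean signals of 62.2 and 35.4 gave 0.059 and 0.12. A second SDHA probe set with a mean signal of 225 gave 0.034 with an SE of 0.36, against 0.064 for the main one, and its low minus air difference was 0.63. For NDUFS3 the further probe sets gave -0.21 and -0.38, in the direction of the main one.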
